A study of Mus musculus with 4 samples.

Results

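CD4 T cells were picked out of single-cell transcriptomes of mouse gonadal white adipose tissue by their own transcripts. A cell was taken as a CD4 T cell when it had at least 1 UMI (unique molecular identifier, standing for 1 captured transcript) of Cd3e or Cd3g and at least 1 of Cd4, and 0 UMIs of Cd8a, Cd8b1 and Csf1r. Low limits on Trdc, Pdgfra, Cd79a and Mzb1 were set against gamma-delta T cells, stromal cells, B cells and plasma cells. They did not remove every trace. Of the cells taken, 41 had 1 to 9 Mzb1 UMIs, 19 had 1 Cd79a UMI, 7 had 1 Pdgfra UMI and 3 had 1 Trdc UMI. This gate held 196 of the 14982 cells kept after quality filtering, and 22 of the 196 carried at least 1 Foxp3 UMI and are called Foxp3 cells here. The other 174 are called other CD4 T cells. Because these UMI counts chose the cells, levels of the gate genes, and of Foxp3 in Foxp3 cells, are a description, and no test of them is given.

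The cells came from the stromal vascular fraction of male mice of 18 months with the genotype p16-CreERT2/R26-LSL-tdTomato, all given tamoxifen. In these mice a tamoxifen-inducible Cre recombinase is driven from the p16 (Cdkn2a) locus and removes a stop cassette before the red fluorescent protein tdTomato, so that Tom+ cells are those in which p16 was on when tamoxifen was given, in whatever cell type. The tissue was digested with Liberase, stained for the leukocyte protein CD45 and the endothelial protein CD31, and sorted by CD45 and tdTomato into 4 groups with 1 library each and no replicate. CD45- cells with tdTomato carry the label CD45- Tom+ and those without it CD45- Tom-, and for CD45+ cells the labels are CD45+ Tom+ (with) and CD45+ Tom- (without). How many mice went into a library, and whether libraries shared mice, is not given by the labels.

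Helper T cells carry CD4 and read antigen on MHC class II, and on activation they help B cells and macrophages through CD40 ligand and cytokines. Regulatory T cells (Tregs) are the CD4 cells that express the transcription factor Foxp3 and restrain other lymphocytes. Visceral fat is known for a Treg population that carries the IL-33 receptor ST2 (Il1rl1) and Klrg1, depends on the transcription factor PPAR-gamma and makes amphiregulin (Areg), a growth factor of tissue repair. In aged mice, CD4 T cells shift from naive to memory and include cells described as senescence-associated, which secrete osteopontin (Spp1).

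The 4 libraries held between 64083756 and 139397501 UMIs. The library labelled CD45- Tom+ gave 29 CD4 T cells, CD45- Tom- gave 74, CD45+ Tom+ gave 10 and CD45+ Tom- gave 83. CD4 T cells were small in RNA, with a median of 5438.5 UMIs a cell, against library medians of 18587 to 20241 over all kept cells. The CD45 labels did not divide leukocytes from other cells. Ptprc, the gene of CD45, had at least 1 UMI in 2715 of 3459 cells without Cd3e or Cd3g in the library labelled CD45- Tom+ and in 1613 of 3531 in CD45- Tom-, and in 1319 of 1712 and 1980 of 4123 in CD45+ Tom+ and CD45+ Tom-. All 4 libraries were therefore treated as carrying T cells, and each is called by its label only. Between libraries 6976 barcodes were shared, of which 59 were kept in both, and no CD4 T cell had its barcode among the CD4 T cells of another library.

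The label of the cells was checked on genes that the gate did not use. Trac, Trbc1, Trbc2, Lck, Lat, Cd28, Cd5, Cd2, Zap70 and Thy1 belong to a list of 15 CD4 T cell genes, of which the gate used Cd4, Cd3e and Cd3g. All 15 were measured in these cells, and the Tnfsf8 and Cd40lg ligands of helper T cells were at over 100 CPM (a gene's UMIs in the summed cells, scaled to a total of 1000000) in every library. The gate rested on few molecules. Of the 196 cells, 66 had a single Cd4 UMI and 14 a single Cd3e or Cd3g UMI, and 7 of the 22 Foxp3 cells had a single Foxp3 UMI. Just outside the gate, 286 kept cells failed only for lack of a Cd4 UMI, 87 only for a Csf1r UMI, 20 only for lack of Cd3e and Cd3g, and 4 only for a Cd8a or Cd8b1 UMI. Cells without a Foxp3 UMI can include Foxp3-expressing cells in which none was captured. In cells that should lack Foxp3, 1 of 232 CD8 T cells (0.431%, median 7617 UMIs) and 15 of 12825 cells without Cd3e or Cd3g (0.117%, median 21075 UMIs) had a Foxp3 UMI.

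CD4 T cells made up 0.700% of kept cells in the library labelled CD45- Tom+ (29 of 4145, exact 95% interval 0.469 to 1.0%) and 1.83% in CD45- Tom- (74 of 4038, 1.44 to 2.30%). They were 0.505% in CD45+ Tom+ (10 of 1981, 0.242 to 0.926%) and 1.72% in CD45+ Tom- (83 of 4818, 1.37 to 2.13%). Both Tom+ libraries thus lay below both Tom- libraries, with intervals that did not overlap in this count. These intervals cover counting error only, and with 1 library a group the difference has no replicate check. After each cell was thinned to 2000 UMIs the shares were 0.388% (0.222 to 0.629%) and 1.20% (0.883 to 1.58%) for the libraries labelled CD45-. The other pair had 0.353% (0.142 to 0.727%) and 0.920% (0.669 to 1.23%), and its intervals overlapped. They overlapped there too with a stricter gate (0.142 to 0.727% and 0.629 to 1.18%). This gate, named below by its 2 UMIs of each gate gene, required 2 UMIs of Cd3e and Cd3g together and 2 of Cd4. It also allowed no UMI of Trdc, Pdgfra or Cd79a. Plasma cell transcripts were higher in the Tom+ libraries (described further on), and a share of all cells moves with every other cell type in the denominator, whose part in the result was not tested. Against CD8 T cells, chosen by the same gate with Cd8a or Cd8b1 in place of Cd4, the fraction of CD4 cells was 42.6% (30.7 to 55.2%) in CD45- Tom+ and 56.1% (47.2 to 64.7%) in CD45- Tom-. It was 31.2% (16.1 to 50.0%) in CD45+ Tom+ and 42.3% (35.3 to 49.6%) in CD45+ Tom-. In both pairs the Tom+ value was the lower one, but the intervals overlapped.

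**Figure D1:**
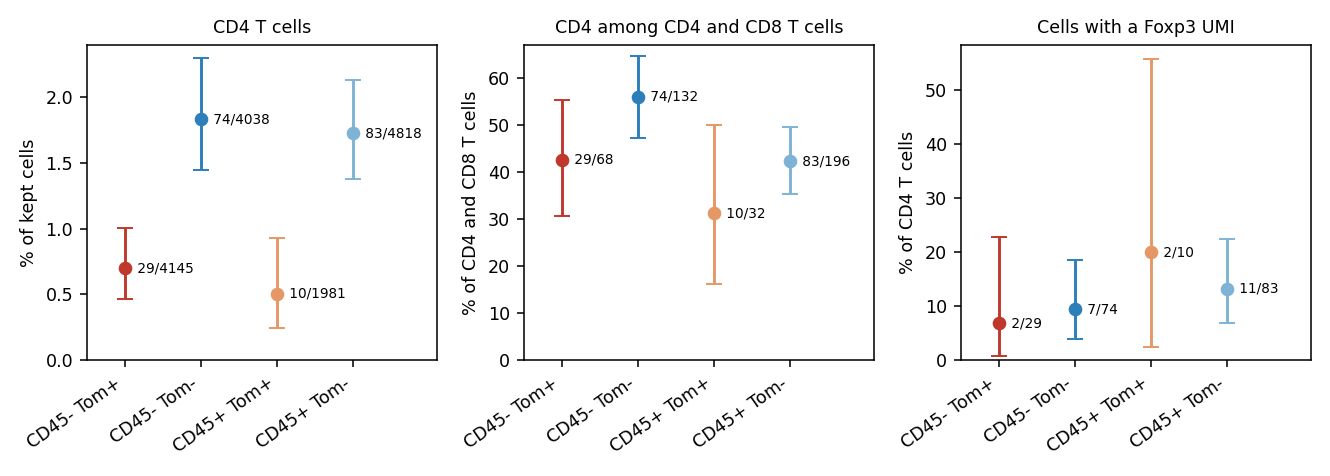
Shares of CD4 T cells by library, in percent. The left panel is the share of all kept cells, the middle panel the share of CD4 cells among CD4 and CD8 T cells, and the right panel the share of CD4 T cells with a Foxp3 UMI. Points are shares with their counts and bars are exact 95% intervals of counting error. The Tom+ points lie below the Tom- points in the left panel, and the intervals overlap in the right panel.

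Foxp3 cells were found in all 4 libraries. They were 2 of 29 CD4 T cells in CD45- Tom+ (6.90%, 0.846 to 22.8%), 7 of 74 in CD45- Tom- (9.46%, 3.89 to 18.5%), 2 of 10 in CD45+ Tom+ (20%, 2.52 to 55.6%) and 11 of 83 in CD45+ Tom- (13.3%, 6.81 to 22.5%). A difference between Tom+ and Tom- in this fraction was not detectable at these cell numbers, since every interval overlapped every other. Thinned to 2000 UMIs, the fractions were 6.90%, 4.35%, 0% (0 of 10, which allows up to 30.0%) and 6.10%. Foxp3 cells had a median of 6271.5 UMIs and the other CD4 T cells 5277.

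The regulatory regions of 3 genes are shown. They are Foxp3, by which Foxp3 cells were picked, and the ST2 gene Il1rl1 and Areg, which were higher in them in the contrast below. Each region is the 300 bases from 250 before to 50 after the gene's RefSeq start on GRCm38.p6, all on the + strand. Capitals mark letters found by a search of both strands for GATAA, the core of GATA factor motifs (found reversed as TTATC), for TGACGTCA, the cyclic AMP response element, and for TATAAA, the TATA box. Foxp3 and Il1rl1 each have a second start in the table, which is not printed.
Foxp3 (chrX:7579426-7579725): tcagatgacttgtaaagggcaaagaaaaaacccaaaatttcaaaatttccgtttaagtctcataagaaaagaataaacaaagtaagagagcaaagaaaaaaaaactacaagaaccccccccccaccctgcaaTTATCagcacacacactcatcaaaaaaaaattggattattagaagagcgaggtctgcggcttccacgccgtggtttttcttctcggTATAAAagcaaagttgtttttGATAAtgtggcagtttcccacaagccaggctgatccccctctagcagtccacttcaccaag
Il1rl1 (chr1:40429320-40429619): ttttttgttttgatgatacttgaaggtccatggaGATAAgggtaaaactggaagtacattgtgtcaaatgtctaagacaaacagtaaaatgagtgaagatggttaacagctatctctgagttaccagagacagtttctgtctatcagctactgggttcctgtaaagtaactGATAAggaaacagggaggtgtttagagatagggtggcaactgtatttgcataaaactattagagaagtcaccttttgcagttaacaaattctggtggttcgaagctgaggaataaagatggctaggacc
Areg (chr5:91139349-91139648): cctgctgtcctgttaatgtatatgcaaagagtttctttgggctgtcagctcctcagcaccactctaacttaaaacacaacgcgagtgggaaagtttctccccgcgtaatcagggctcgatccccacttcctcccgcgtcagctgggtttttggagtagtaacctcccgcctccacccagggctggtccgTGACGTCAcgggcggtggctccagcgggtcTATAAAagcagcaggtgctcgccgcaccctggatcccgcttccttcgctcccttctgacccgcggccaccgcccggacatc
The Il1rl1 window held GATAA at bases -216 and -79 from the start site, and the Foxp3 window held TTATC at -118, GATAA at -11 and TATAAA at -32. The Areg window held TGACGTCA at -61 and TATAAA at -31. Of 32851 promoter windows of the same length, 25.4% held GATAA in either direction, 1.79% TGACGTCA and 13.6% TATAAA. A match is a string of letters and was not tested as a binding site. In the GENCODE vM21 annotation of the same build, all 3 are protein-coding genes on the + strand: Foxp3 at chrX:7573644-7595245, Il1rl1 at chr1:40429570-40465415 and Areg at chr5:91139599-91148432.

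Foxp3 cells were compared with the other CD4 T cells of the same libraries, to see what else set them apart. Counts were summed per library and kind of cell, which gave 8 profiles, and tested with edgeR's quasi-likelihood test with the library as a block and Benjamini-Hochberg adjustment. P-values measure only the spread between these 4 libraries, which may be technical. Of 1172 genes tested, 45 passed an adjusted p of 0.05 (3.84%), 21 higher in Foxp3 cells (1.79%) and 24 lower (2.05%). Whether called or not, 65 genes had all 4 Foxp3 profiles above all 4 others (5.55%) and 44 had them below (3.75%). Treg receptors, ST2 and amphiregulin rose in Foxp3 cells, while Bcl2, the chemokine Ccl5 and the ligands Tnfsf8 and Cd40lg fell. The number of calls depended on the cells summed, which also changed the number of genes tested. It was 13 of 1220 without the library labelled CD45- Tom+ and 10 of 787 with the stricter gate of 2 UMIs of each gate gene. It was 62 of 748 without the 1 Foxp3 cell of over 50000 UMIs, and 36 of these were among the 45.

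That cell, in CD45- Tom-, held 55822 UMIs, 54.3% of the Foxp3-cell UMIs of its library. It had 45 UMIs of the proliferation gene Mki67, 61 of Top2a and 3 of Foxp3. Its Scrublet doublet score was among the highest of its library, a set number of which were marked as doublets. The other 21 Foxp3 cells ranged from 3691 to 16770 UMIs and had 2 Mki67 UMIs between them. The profile of CD45- Tom- Foxp3 cells is therefore largely 1 cell, and its values below are often the lowest of the 4. Of the 2 Foxp3 cells in CD45+ Tom+, 1 was also marked as a doublet. The CD45+ Tom+ values of Foxp3 cells below therefore rest in part on a marked cell.

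Among receptors of the Treg core, Ctla4, which competes with CD28 for its ligands, was at 1963, 759, 1688 and 2133 CPM in Foxp3 cells (libraries in the order CD45- Tom+, CD45- Tom-, CD45+ Tom+, CD45+ Tom-) and at 607, 351, 204 and 494 CPM in the other CD4 T cells. The lowest Foxp3-cell value lay above the highest of the others. Ctla4 rose by 1.80 on the log2 scale (SE 0.33, adjusted p = 2.4e-04, edgeR). It lost the call with 2 UMIs of each gate gene (adjusted p = 0.19, edgeR) and without the filter on low counts (0.059). Il2ra, the high-affinity chain of the IL-2 receptor, was at 550, 136, 294 and 341 CPM in Foxp3 cells and at 0, 16.0, 0 and 22.5 CPM in the others, again without overlap. Its log2 difference was 4.23 (SE 0.57, adjusted p = 7.6e-07, edgeR). The highest value, in CD45- Tom+, was 7 UMIs that all came from 1 of its 2 Foxp3 cells. Single cells gave the same picture, with an Il2ra UMI in 16 of 22 Foxp3 cells and in 6 of 174 others, and a Ctla4 UMI in 22 of 22 and in 118 of 174.

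Ikzf2, which encodes the transcription factor Helios, was at 864, 759, 1541 and 1511 CPM in Foxp3 cells against 172, 70.2, 204 and 236 CPM in the others (log2 difference 2.76, SE 0.37, adjusted p = 7.6e-07, edgeR). An Ikzf2 UMI was present in 21 of 22 Foxp3 cells and in 45 of 174 others. Tnfrsf4, the costimulatory receptor OX40, was at 1728, 263, 440 and 844 CPM against 161, 179, 45.4 and 213 CPM (2.0, SE 0.43, adjusted p = 0.0020, edgeR), and did not keep its call without CD45- Tom+ (adjusted p = 0.22). Tnfrsf18, the related receptor GITR, was at 628, 117, 587 and 548 CPM against 124, 169, 90.7 and 166 CPM. Its groups overlapped through CD45- Tom- and it did not pass (log2 1.30, SE 0.46, adjusted p = 0.13, edgeR), but it passed without the deepest cell (adjusted p = 0.0012). Tnfrsf9 (4-1BB) was too low to be tested, with a UMI in 14 of 22 Foxp3 cells and 6 of 174 others. Of the 19 core Treg genes other than Foxp3, 7 were tested and 4 rose (Il2ra, Ctla4, Ikzf2, Tnfrsf4) with none lower. A low gene could pass the filter on counts through the group where it was high alone, as Il2ra could, so counts and medians of tested members describe those members and not their lists. The median log2 difference over all 1172 genes was -0.02.

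Il1rl1, whose protein ST2 receives the alarmin IL-33, was at 942, 175, 587 and 607 CPM in Foxp3 cells and at 5.37, 38.3, 0 and 33.7 CPM in the other CD4 T cells (4.08, SE 0.53, adjusted p = 6.4e-07, edgeR). All 4 Foxp3-cell values lay above all 4 others, but the highest, in CD45- Tom+, was 12 UMIs from 1 of its 2 Foxp3 cells. Areg was at 1178, 204, 3009 and 489 CPM against 53.7, 16.0, 0 and 124 CPM, also without overlap (3.69, SE 0.50, adjusted p = 8.7e-07, edgeR). Its highest value, in CD45+ Tom+, was 41 UMIs in 2 cells, 39 of them in 1 cell. Of these 2 cells, 1 was marked as a doublet. In CD45- Tom+, 14 of the 15 Areg UMIs came from the cell that held the Il1rl1 UMIs. Ccr2, the receptor that draws leukocytes to the chemokine Ccl2, was at 314, 224, 440 and 563 CPM against 102, 109, 136 and 137 CPM (1.52, SE 0.43, adjusted p = 0.032, edgeR). Its call was lost without CD45- Tom+ (0.17), without CD45+ Tom+ (0.17) and without CD45+ Tom- (0.34). Gata3, a transcription factor of type 2 immunity, was at 785, 107, 1248 and 489 CPM against 118, 188, 90.7 and 166 CPM. It did not pass in the comparison of all cells (1.51, SE 0.48, adjusted p = 0.075, edgeR) and passed without the deepest cell (adjusted p = 4.8e-04). Of 20 genes on the adipose Treg list, 6 were tested, and Il1rl1, Areg and Ccr2 rose.

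Il1rl1, Areg and Gata3 are also expressed by group 2 innate lymphoid cells. The type 2 cytokine genes Il4, Il5 and Il13 had 0 UMIs in all 196 CD4 T cells. Il17a, the Th17 cytokine gene, had 3 UMIs in 1 CD4 T cell.

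**Figure D2:**
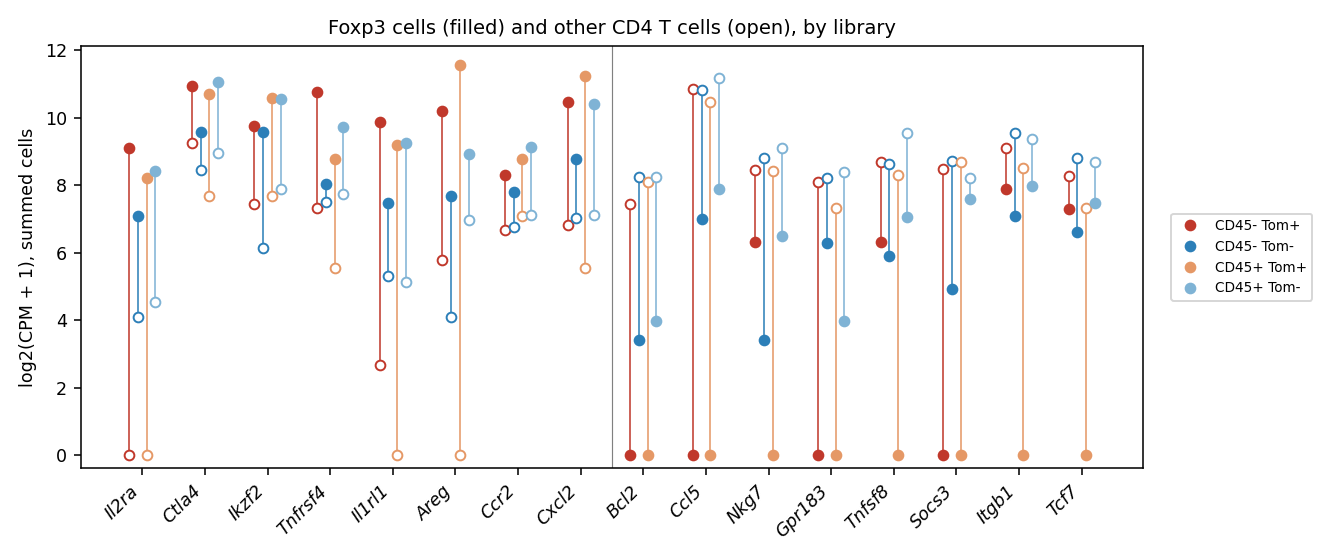
Levels of 16 genes in Foxp3 cells (filled) and other CD4 T cells (open), as log2 of CPM plus 1, with 1 joined pair per library. Genes left of the grey line were higher in Foxp3 cells and those right of it lower. For Il2ra, Il1rl1 and Areg the filled points stand above all open points, and for Bcl2 and Ccl5 below them.

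Other genes higher in Foxp3 cells included AA467197 (Nmes1), a gene of unclear role in T cells, which had the largest log2 difference of the named genes (5.11, SE 0.58, adjusted p = 2.7e-08, edgeR). It was at 314, 204, 147 and 740 CPM against 26.9, 6.39, 0 and 8.99 CPM. Cxcl2, a chemokine that draws neutrophils, was at 1414, 438, 2422 and 1348 CPM against 113, 131, 45.4 and 139 CPM (3.17, SE 0.41, adjusted p = 5.9e-07, edgeR). Ctla2a, which encodes an inhibitor of cysteine proteases, and the tetraspanin gene Cd81 rose by 1.94 and 1.80 (adjusted p = 3.8e-04 and 0.013, edgeR). Ctla2a lost its call without CD45- Tom+ (0.086) and turned to -1.87 with 2 UMIs of each gate gene, and Cd81 without CD45- Tom+ (0.082), CD45- Tom- (0.059) or CD45+ Tom+ (0.13).

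Bcl2, which encodes a protein that blocks apoptosis, had the largest fall of the named genes. It was at 0, 9.73, 0 and 14.8 CPM in Foxp3 cells and at 172, 300, 272 and 303 CPM in the other CD4 T cells. This rested on 2 UMIs against 273, a ratio of 27.2 in favour of the other cells (95% counting interval 7.45 to 225, adjusted p = 1.2e-05 by edgeR). Ccl5, a chemokine of effector T cells, was at 0, 126, 0 and 237 CPM against 1853, 1826, 1406 and 2325 CPM, and fell by 4.00 (SE 0.42, adjusted p = 7.2e-09, edgeR). Nkg7, a gene of cytotoxic granules, had a log2 difference of -3.54 and the membrane protein gene Ms4a4b of -3.48 (adjusted p = 4.5e-05 and 1.2e-06, edgeR). For all of these the groups did not overlap.

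Tnfsf8 (CD30 ligand) was at 78.5, 58.4, 0 and 133 CPM in Foxp3 cells and at 414, 396, 317 and 750 CPM in the others, and fell by 2.74 (SE 0.49, adjusted p = 2.2e-04, edgeR). Cd40lg, the helper signal to B cells and macrophages, was at 0, 29.2, 220 and 29.6 CPM against 188, 169, 181 and 168 CPM. Its groups overlapped, because 1 of the 4 Foxp3 profiles, of 2 cells, was above all others. It fell by 2.03 (SE 0.59, adjusted p = 0.037, edgeR) and lost the call without CD45- Tom+ (0.22), CD45- Tom- (0.15) or CD45+ Tom- (0.17). Gpr183, a receptor for oxysterols that positions lymphocytes, had a log2 difference of -2.91, the Rab GTPase regulator Tbc1d4 of -2.55, the cytokine signalling inhibitor Socs3 of -2.39 and the T cell receptor signalling gene Themis of -2.12 (adjusted p = 0.0014, 0.0069, 0.0084 and 0.029, edgeR). Each of these 4 lost its call without CD45- Tom+ (0.067, 0.16, 0.19 and 0.17 in the same order). Socs3 also lost it without CD45- Tom- (0.14) or CD45+ Tom+ (0.069), Tbc1d4 without CD45+ Tom- (0.075) and Themis without CD45+ Tom+ (0.053).

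Calls for AA467197, Il2ra, Il1rl1, Areg, Cxcl2, Ikzf2, Ctla4, Ccl5, Nkg7, Ms4a4b, Tnfsf8 and Bcl2 held in every run without 1 library in which the gene was tested. AA467197 and Bcl2 were not tested without CD45- Tom-, where they missed the filter on low counts. With 2 UMIs of each gate gene, Ikzf2 kept its call, as the only gene called higher in Foxp3 cells. AA467197, Il2ra, Il1rl1, Areg and Cxcl2 were not among the genes tested with that gate, so it was no check on them. Of the 14 effector memory genes tested, S100a4, S100a10 and Vim rose and Itgb1, Ccl5 and Nkg7 fell, with a median of 0.67. Of 5 tested genes of naive and central memory cells, Tcf7 fell (-1.73, adjusted p = 0.034, edgeR), with a median of -0.94. S100a4, S100a10, Vim and Tcf7 each lost the call without CD45- Tom+ (0.22, 0.19, 0.093 and 0.17), without CD45+ Tom+ (0.61, 0.12, 0.26 and 0.10) and without CD45+ Tom- (0.25, 0.086, 0.089 and 0.084), and Itgb1 without CD45- Tom+ (0.084). In the IL-2 receptor and STAT5 list, 1 of 6 tested rose (Il2ra) and 2 fell (Socs3, Bcl2), with a median of 0.35. Dissociation stress genes gave 0 calls of 12 tested (median -0.22), and the TGF-beta pathway 0 of 4 (median -0.37). Among the tested CD4 T cell identity genes that the gate did not use, Cd28 alone was called, and fell (-1.40, adjusted p = 0.029, edgeR), a call lost without CD45- Tom+ (0.18), CD45- Tom- (0.15) or CD45+ Tom+ (0.16). Of 5 plasma cell genes tested, Igkc was lower in Foxp3 cells (log2 difference -0.87, adjusted p = 0.017, edgeR), a call lost in 3 of the 4 runs without 1 library, with adjusted p up to 0.43 (without CD45+ Tom+), 0.24 (without CD45- Tom-) and 0.14 (without CD45- Tom+). Its part in the other results was not tested.

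Foxp3 cells differed among themselves in Il1rl1. Its UMIs were found in 1 of 2, 2 of 7, 2 of 2 and 5 of 11 Foxp3 cells in the 4 libraries, 10 of 22 in all. Klrg1, a receptor for cadherins, had a UMI in 9 of these 10 and in 0 of the 12 without Il1rl1. Ccr2 was in 9 of 10 against 2 of 12, Pcyt1a, an enzyme of phosphatidylcholine synthesis, in 8 against 1, and Fgl2, which encodes a secreted suppressor of T cells, in 8 against 3. Pparg was in 3 of 10 against 0 of 12. Areg was less divided, in 9 of 10 and 7 of 12, as was Gata3, in 8 and 6, and Ikzf2 was in 10 of 10 and 11 of 12. Median depth was 5992.5 UMIs in cells with Il1rl1 and 7276.5 in cells without, and the part of depth in this split was not tested. These are cells of the same 4 libraries rather than replicates, and the split was chosen after other values of these data were known, so no test is given. Il10, an anti-inflammatory cytokine, had a UMI in 4 of 10 and 2 of 12.

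**Figure D3:**
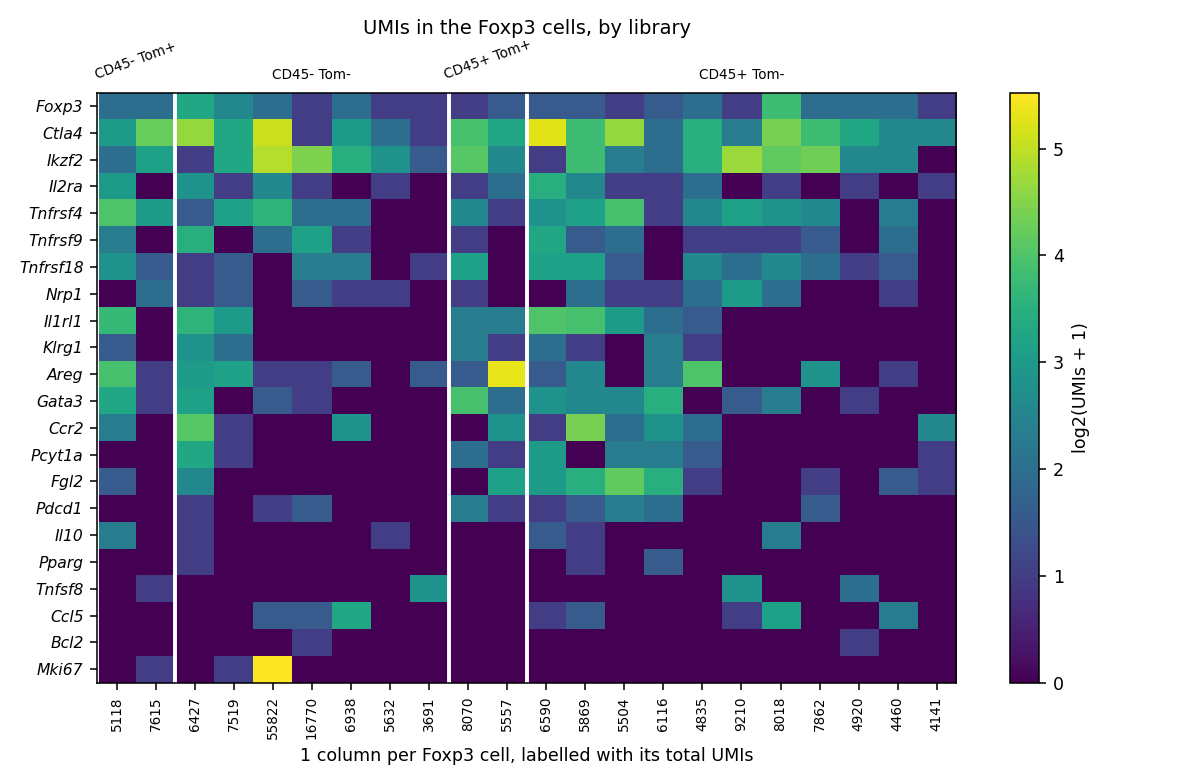
UMIs of 22 genes in each of the 22 Foxp3 cells, as log2 of UMIs plus 1. Columns are cells, grouped by library and labelled with their total UMIs, and within a library those with the most Il1rl1 are at the left. Klrg1, Ccr2, Pcyt1a and Fgl2 fill mainly the columns in which Il1rl1 is present, and Mki67 stands out in the cell of 55822 UMIs.

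The other 174 CD4 T cells were divided by Tnfsf8. A Tnfsf8 UMI was found in 16 of 27, 23 of 67, 3 of 8 and 34 of 72 of them in the 4 libraries, 76 in all. Eomes, a transcription factor of cytotoxic memory T cells, had a UMI in 1 of the 76 cells with Tnfsf8 (1.32%, 0.0333 to 7.11%) and in 36 of the 98 without (36.7%, 27.2 to 47.1%). The granzyme gene Gzmk was in 5 of 76 and 51 of 98, and Ccl5 in 16 of 76 and 75 of 98. In the other direction, Cd200, an immunoregulatory membrane protein, was in 24 of 76 and 6 of 98, Lag3, an inhibitory receptor that binds MHC class II, in 20 of 76 and 4 of 98, and Sostdc1, a BMP antagonist, in 11 of 76 and 0 of 98. Cells with Tnfsf8 were the deeper ones, with a median of 5730 UMIs against 4943.5. Neither the division nor its members were tested, since cells of 1 library are not replicates.

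Eomes and Gzmk were seldom found together with Tnfsf8 in each of the libraries. Eomes or Gzmk was found in 6 of 27, 27 of 67, 3 of 8 and 26 of 72 of the other CD4 T cells, and together with Tnfsf8 in 0, 2, 0 and 3 of them. In all, 5 of the 174 cells had both, 41 had neither, and the rest had 1 kind only. Genes that did not follow this division were Spp1, in 35 of 76 and 32 of 98, Pdcd1, the gene of PD-1, in 13 and 11, and Tbx21, the Th1 transcription factor T-bet, in 14 and 24. Eomes and Gzmk had 0 UMIs in the 22 Foxp3 cells. As 0 of 22, this allows a share of up to 13.6%.

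**Figure D4:**
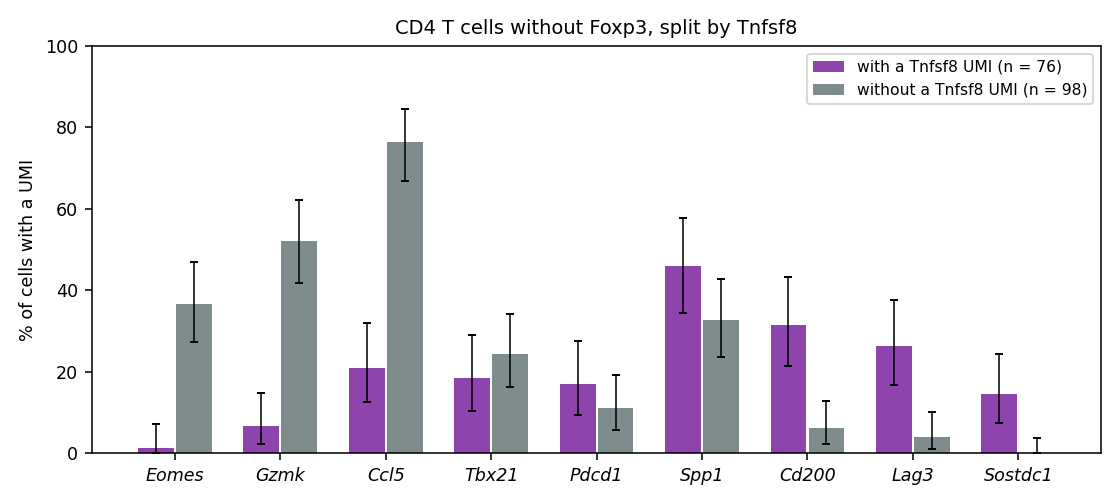
Share of cells with at least 1 UMI of 9 genes in the 174 CD4 T cells without Foxp3, in percent, divided into 76 with and 98 without a Tnfsf8 UMI. Bars are shares and error bars exact 95% intervals of counting error. Eomes, Gzmk and Ccl5 are more frequent without Tnfsf8, Cd200, Lag3 and Sostdc1 more frequent with it, and Pdcd1 is at 13 of 76 and 11 of 98 cells.

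CD4 T cells were next set against the CD8 T cells of the same libraries (39, 58, 22 and 113 cells), the cells most like them, in the same kind of fit. Of 4680 genes tested, 354 passed (7.56%), 156 higher in CD4 cells (3.33%) and 198 lower (4.23%). In 303 genes the 4 CD4 profiles lay above all CD8 profiles (6.47%) and in 209 below (4.47%). The count was 235 of 3698 tested without CD45- Tom- and 195 of 3688 without CD45+ Tom-. CD4 cells had more Treg and helper ligand transcripts, and CD8 cells more natural killer receptors and more genes of naive cells.

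Cd40lg was at 176, 135, 191 and 150 CPM in CD4 cells and at 5.68, 0, 0 and 2.05 CPM in CD8 cells, a log2 difference of 5.94 (SE 0.43, adjusted p = 1.4e-09, edgeR). Tnfsf8 was at 392, 313, 243 and 669 CPM against 17.0, 14.1, 32.7 and 21.5 CPM (4.41, SE 0.24, adjusted p = 1.2e-11, edgeR). Tnfrsf4 was at 261, 200, 139 and 296 CPM against 2.84, 2.34, 0 and 6.15 CPM (5.75, SE 0.32, adjusted p = 1.2e-11, edgeR). For all 3 the levels were far apart with no overlap. Areg (5.36), Il2ra (3.41), Il1rl1 (3.13), AA467197 (3.63), the folate receptor family gene Izumo1r (4.26) and Tiam1, an activator of the GTPase Rac (3.88), also rose in CD4 cells on the log2 scale. Foxp3 had 66 UMIs in CD4 cells and 1 in CD8 cells, a ratio of 108 (95% counting interval 18.7 to 4329).

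Of 20 Treg core genes, 11 were tested and 10 rose (Foxp3, Il2ra, Ctla4, Ikzf2, Tnfrsf18, Tnfrsf4, Nrp1, Izumo1r, Capg and Socs2). Over all 4680 genes 3.33% rose, with a median log2 difference of 0.01. A gene low in CD8 cells, as Foxp3 was, could pass the filter on counts through the CD4 cells alone, and the reverse. Counts and medians of tested members in this contrast therefore describe those members and not their lists. On the adipose Treg list, 7 of 12 tested rose, namely Il1rl1, Gata3, Areg, Batf, Prdm1, Rora and Odc1. Prdm1, the gene of Blimp-1, lost its call without CD45- Tom+ (0.075) or CD45- Tom- (0.21). Gata3 was at 161, 168, 364 and 209 CPM against 19.9, 32.8, 32.7 and 42.0 CPM in CD8 cells. A Gata3 UMI was found in 14 of 22 Foxp3 cells and in 60 of the 174 others.

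Naive and central memory genes fell in CD4 cells relative to CD8 cells in 5 of 11 tested, with none higher and a median of -0.68. Ccr7, the receptor that guides naive cells to lymph nodes, was at 101, 98.6, 52.0 and 46.8 CPM in CD4 cells against 273, 255, 163 and 247 CPM in CD8 cells (-1.84, SE 0.21, adjusted p = 1.8e-06, edgeR). Satb1 and Klf2 did not overlap between the groups either, while the transcription factor gene Lef1 did and lost its call without CD45- Tom+ (0.17) or CD45+ Tom- (0.11). The list moved as a count of 5 of 11 and not as a whole, with Tcf7 at -0.26 (adjusted p = 0.55, edgeR) and Il7r, the IL-7 receptor gene, at 0.32 (0.40). Of 15 effector memory genes, 6 rose (Cd44, S100a4, S100a10, S100a11, Itgb1, Vim) and Ccl5 and Nkg7 fell, with a median of 0.35. Of these 6, S100a10 lost its call without any 1 of the 4 libraries (adjusted p 0.066 to 0.35, edgeR), Cd44 without CD45- Tom- (0.060) or CD45+ Tom- (0.095), and Vim without CD45- Tom- (0.067).

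Natural killer receptors marked the CD8 side. Klrc2 had 0 UMIs in CD4 cells and 178 in CD8 cells, at least 36.3-fold lower in CD4 cells when the 0 is set to 3 UMIs. Klrc1 had 1 UMI against 177, a ratio of 108 (19.2 to 4297), and Bend4, of unclear role in T cells, 1 against 93, a ratio of 56.8 (9.95 to 2269). The log2 difference was -4.07 for Klrk1 (NKG2D), -4.01 for the granzyme gene Gzmm, -3.54 for Ly6c2, -3.01 for Klrd1 (CD94), -2.82 for Cd7 and -2.64 for Atp8b4, all lower in CD4 cells. Calls of these 20 named genes held in every run without 1 library in which they were tested. Of 6 tested genes of the innate-like list, 5 fell (median -2.04). Among those, Tyrobp was lost without CD45- Tom+ (0.081) or CD45+ Tom- (0.62), and Xcl1 without CD45- Tom+ (0.38), CD45+ Tom+ (0.12) or CD45+ Tom- (0.073).

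Genes tied to senescence-associated T cells went both ways. Tnfsf8 and Spp1 rose in CD4 cells and Eomes and Gzmk fell, 4 of 6 tested. Spp1 was at 90.5, 202, 17.3 and 275 CPM in CD4 cells against 56.8, 63.2, 32.7 and 38.9 CPM in CD8 cells (1.76, SE 0.29, adjusted p = 2.3e-04, edgeR), with overlap through CD45+ Tom+, and missed the call without CD45+ Tom- (0.075). Eomes was at 95.5, 81.7, 52.0 and 125 CPM against 326, 316, 387 and 243 CPM (-1.69, SE 0.20, adjusted p = 3.8e-06, edgeR). Gzmk (-0.70, adjusted p = 0.023, edgeR) lost its call without CD45- Tom- (0.25) or CD45+ Tom- (0.097). MHC class II genes fell in 4 of 5 tested. H2-Eb1 was at 60.3, 62.5, 69.3 and 87.8 CPM in CD4 cells against 39.7, 415, 27.2 and 356 CPM in CD8 cells, lower in the Tom- libraries and higher in the Tom+ ones. The call of all 4 was lost with doublets left out (adjusted p 0.077 to 0.54, edgeR). The part of doublets or of antigen-presenting cell transcripts was not tested further. Plasma cell genes Igkc (0.51) and Ighm (0.75) were higher in CD4 cells, 2 of 7 tested. Both calls were lost with 2 UMIs of each gate gene (adjusted p = 0.16 and 0.37, edgeR) and without the library block (0.86 and 0.65).

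Last, the CD4 T cells of Tom+ and Tom- libraries were compared within each pair. With 1 library a group there is no test, and values are log2 ratios of CPM with exact 95% intervals of counting error. Of 2841 genes that averaged 50 CPM or more over the libraries, 79 differed at least 2-fold with the same sign in both pairs (2.78%), 45 higher in Tom+ (1.58%) and 34 lower (1.2%). When immunoglobulin genes and tdTomato were left out of the totals, the split was 49 higher and 20 lower, and the median ratio over all genes moved from -0.12 to -0.02.

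Reporter transcripts in CD4 T cell barcodes followed the labels. The part of tdTomato RNA from other cells in these barcodes was not tested. tdTomato was at 804 CPM in CD45- Tom+ and 62.5 in CD45- Tom-, and at 641 in CD45+ Tom+ and 99.5 in CD45+ Tom-, with a UMI in 27 of 29, 18 of 74, 9 of 10 and 30 of 83 CD4 T cells. Within Foxp3 cells it was found in 2 of 2, 0 of 7, 2 of 2 and 1 of 11. Cdkn2a, the p16 gene, had 0, 3, 0 and 3 UMIs in CD4 T cells, 6 in all, so that its level could not be compared at this depth.

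CD4 T cell identity genes did not differ by this rule, with 0 called of 15 measured, gate genes included, and medians of -0.08 in the pair labelled CD45- and -0.37 in the pair labelled CD45+, against -0.11 and -0.19 over all genes. The Treg core list gave 0 calls of 10 (medians 0.27 and -0.21). Ctla4 was at 694 and 452 CPM in the pair labelled CD45- and at 554 and 710 CPM in the other, with ratios of opposite sign. Ikzf2 was at 216 and 240 CPM and at 520 and 404 CPM, and Il1rl1 at 65.4 and 72.1 CPM and at 139 and 109 CPM, with intervals that included 0 in both pairs for each. Tnfsf8 was at 392 against 313 CPM in the first pair (log2 ratio 0.33, -0.10 to 0.74) and at 243 against 669 CPM in the second (-1.46, -2.35 to -0.70), the latter from 14 UMIs in CD45+ Tom+.

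Plasma cell transcripts made the widest gap. Igkc, the kappa light chain gene, was at 42587 CPM in CD45- Tom+ and 2629.9 in CD45- Tom-, and at 46235 in CD45+ Tom+ and 2083 in CD45+ Tom- (log2 ratios 4.02 and 4.47). All 6 plasma cell genes measured were higher in Tom+ in both pairs (Jchain, Mzb1, Igkc, Iglc2, Ighm, Xbp1; medians 3.94 and 4.33). CD8 T cells of the same libraries had 31166, 1899.7, 23572 and 1549.6 CPM of Igkc, and cells without Cd3e or Cd3g 175336, 9657, 171698 and 12349.9 CPM, so the gap was of like size in all 3 kinds of cell. Immunoglobulins, tdTomato and the gate genes, Mzb1 among them, were left out of the ranking of ratios. The 10 highest of the genes ranked were Ly6d, Txndc5, Mef2c, Slpi, Xbp1, Herpud1, Pdia4, Ltb4r1, Smarcd1 and Jun, of which Xbp1 is on the plasma cell list. Ly6d, for example, was at 206 and 19.2 CPM and at 277 and 13.7 CPM. In CD45- Tom+, 1 gated cell held 2209 Ighm and 935 Igkc UMIs among its 8573. The part of plasma cell RNA in these values was not tested.

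In the other direction, all 5 adipose progenitor genes measured were lower in Tom+ (medians -1.78 and -2.37). Dcn, which encodes the matrix proteoglycan decorin, was at 35.2 and 291 CPM in the pair labelled CD45- (-3.05, -4.39 to -1.96) and at 0 and 230 CPM in the other, at least 2.15 lower on the log2 scale with the 0 set to 3 UMIs. In cells without Cd3e or Cd3g, Dcn moved the same way, at 1915, 9779, 1857 and 9454 CPM. C3, Sparc and Col1a2 were among the 10 lowest ratios of the genes ranked. After thinning, the ratio of the pair labelled CD45+ turned positive for Sparc (0.53), Col1a1 (0.92) and Gsn (0.10). The part of stromal RNA in CD4 T cell barcodes was not tested.

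Of 13 dissociation stress genes, Jun and Atf3 differed at least 2-fold in both pairs (medians 0.45 in both). Jun, a subunit of the AP-1 transcription factor, was at 945 and 262 CPM (1.85, 1.5 to 2.20) and at 1161 and 312 CPM (1.89, 1.46 to 2.32). Atf3, an early stress response factor, was at 458 and 38.5 CPM (3.57, 2.80 to 4.44) and at 121 and 44.9 CPM (1.43, -0.03 to 2.70). In CD45- Tom+, 1 cell of 30372 UMIs held 72 Atf3 UMIs and 61 of the 188 Jun UMIs. The Atf3 ratio of 3.57 thus rested largely on that cell. Fos, the partner of Jun, was at 1508 and 962 CPM and at 1317 and 765 CPM and did not reach 2-fold. In CD8 T cells Jun was at 565, 410, 506 and 364 CPM, so the Tom+ values were above the Tom- values there too, by less. Spp1 was lower in Tom+, at 90.5 and 202 CPM (-1.16, -1.98 to -0.41) and at 17.3 and 275 CPM. The second value is 1 UMI, with an interval of -9.30 to -1.49. Areg was higher in Tom+, at 126 and 62.5 CPM (1.01, 0.16 to 1.86) and at 710 and 172 CPM (2.05, 1.48 to 2.60). Its direction rested on single cells, since 39 of the 41 UMIs in CD45+ Tom+ came from 1 cell, and with doublets left out the ratio of that pair was -2.16.

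**Figure D5:**
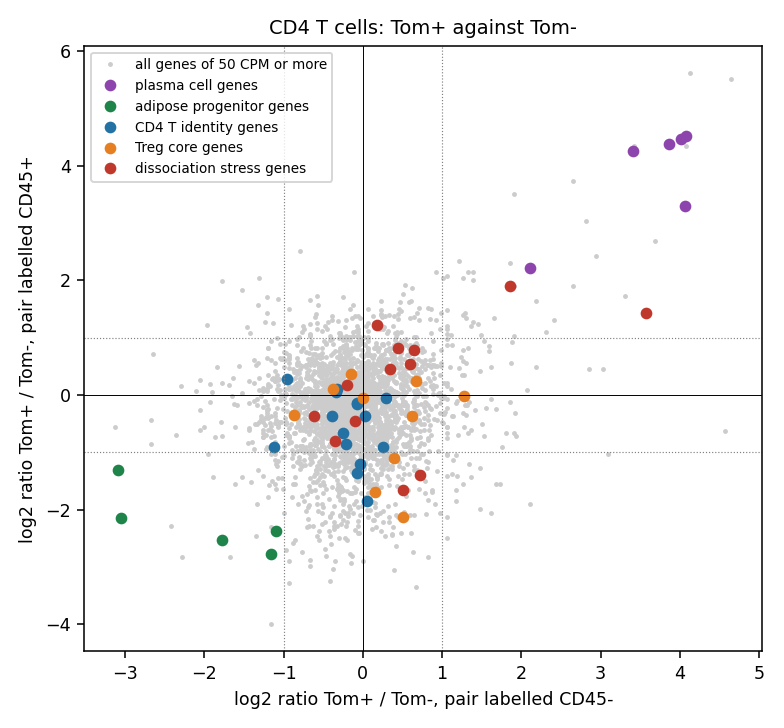
Log2 ratios of Tom+ to Tom- CPM in CD4 T cells, with the pair labelled CD45- on the horizontal and the pair labelled CD45+ on the vertical axis. Each grey point is a gene that averaged 50 CPM or more, dotted lines mark 2-fold, and colours mark 5 gene lists. Plasma cell genes lie at the upper right, adipose progenitor genes at the lower left and CD4 T identity genes around the centre.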

How the data were processed

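Single-cell RNA was measured in 4 libraries of 10x Genomics 3' chemistry, 1 for each sort label. Per the labels, the authors used Cell Ranger 3.0.2 with mm10. The deposited matrices hold counts, whole-number UMI counts per gene and barcode without normalization, and include a tdTomato row. The study's own comparisons, Wilcoxon tests over cells, were not used, since cells are not replicates.

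Kept barcodes had a gene number above 1000 and below 7000, with mitochondrial UMIs below 8%. Gated cells were summed per library. The Foxp3 and CD4 against CD8 contrasts used edgeR 4.0.16 (R 4.3.3) with trimmed mean scaling, filterByExpr and glmQLFTest, with the library as a block. CPM scales the UMIs of the summed cells to 1000000. Tom+ and Tom- were compared as ratios of counts with conditional exact intervals, and shares carry Clopper-Pearson intervals, which cover counting error only. A count of 0 is given a floor of 3 counts per library or group summed. Scrublet (scanpy 1.11.5) scored the kept cells, and the highest scores of each library were marked as doublets. An assumed rate of 0.8% per 1000 barcodes set in advance how many were marked, namely 259, 364, 54 and 427 kept cells. Of those marked, 3 were CD4 T cells (2 with Foxp3), and all were left in. Positions come from GENCODE vM21 (mm10) and promoters from RefSeq (GRCm38.p6). Ikzf2 was not in the promoter table.

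The members and gene lists were chosen with earlier results of these data known. Named genes were list genes and, per contrast, the 10 highest and 10 lowest log2 differences among calls of at least 20 CPM (for Tom+ against Tom-, the 10 highest and lowest ratios nearest 0 of both pairs, at 50 CPM or more). Immunoglobulin, T cell receptor segment, mitochondrial, ribosomal protein and predicted genes, tdTomato and the genes of the gate were left out of these rankings. The divisions of cells by Il1rl1 and Tnfsf8, and the list genes shown for them, were chosen after their values were seen.

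The fits were tested on simulated counts with 200 changed genes. These counts had a common dispersion for all genes, and libraries differed only in total UMIs. They did not copy profiles that rest on few cells, so the rates need not hold for the data. For the Foxp3 contrast (1172 genes), 32.2% of 2-fold and 85.5% of 4-fold changes were recovered and 0.617% of unchanged genes were called. For CD4 against CD8 (4680 genes) these were 68.5%, 100% and 0.179%. Alternatives were DESeq2 1.42.0, no filter on low counts, no library block, each library left out, doublets left out and thinning to 2000 UMIs. Looser cell filters (at least 500 genes, no upper limit on genes and under 20% mitochondrial) were also used. The stricter gate, named by its 2 UMIs of each gate gene, required 2 UMIs of Cd3e and Cd3g together. It also required 2 of Cd4, or 2 of Cd8a and Cd8b1 together for CD8 T cells, and no UMI of Trdc, Pdgfra or Cd79a. For single contrasts, at least 2 Foxp3 UMIs, only cells without Foxp3 and equal weight per cell were used. Leaving out the deepest cell and leaving immunoglobulin genes out of totals were added after seeing the data. Some genes of the lists are not reported here.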

Additional observations from a re-analysis of the deposited data

Results flagged for a closer look

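Barcodes that met the CD4 T cell gate but not the cell filters numbered 14 in CD45- Tom+, 44 in CD45- Tom-, 4 in CD45+ Tom+ and 42 in CD45+ Tom-. Of these 104, 67 had 1000 genes or fewer and 79 had 8% or more mitochondrial UMIs, and 0, 6, 0 and 2 carried a Foxp3 UMI. They were not among the cells compared above and appear only under the looser filters.

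MHC class II genes differed in opposite directions between CD4 and CD8 T cells, being higher in CD4 cells in both Tom+ libraries and lower in both Tom- libraries. The mean log2 ratio of CD4 to CD8 cells in the Tom+ libraries minus that in the Tom- libraries was 1.98 for H2-Aa, 3.08 for H2-Ab1, 3.35 for H2-Eb1 and 3.06 for Cd74. This difference was not tested.

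For 3 list genes the Tom+ to Tom- ratio had opposite signs in the 2 pairs, which was not tested either. S100a11, an effector memory gene, had log2 ratios of 0.54 in the pair labelled CD45- and -0.53 in the pair labelled CD45+. Ccl5 had 0.30 and -0.93. Sostdc1 had 34 UMIs in CD45- Tom+ (24 of them in 1 cell), 0 in CD45- Tom-, 0 in CD45+ Tom+ and 41 in CD45+ Tom-, which gives log2 ratios of at least 4.57 and at most -0.62 when a 0 is set to 3 UMIs.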

How the results depend on the processing

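The Foxp3 contrast (45 calls of 1172 tested) gave 23 of 811 with at least 2 Foxp3 UMIs and 27 of 1172 with DESeq2. It gave 10 of 787 (1 higher, 9 lower) with 2 UMIs of each gate gene and 15 of 207 after thinning. CD4 against CD8 (354 of 4680) gave 210 of 4680 with DESeq2, 169 of 3566 with 2 UMIs of each gate gene and 195 of 1342 after thinning. The Tom comparison (79) gave 120 with 2 UMIs of each gate gene, 35 of them shared with the 79, and 128 after thinning, 28 of them shared. Without 1 library each, the Foxp3 contrast ranged from 13 to 46 calls and CD4 against CD8 from 195 to 334. The labels carry no replicate numbers, and profiles were paired by library alone. With no replicate block for the library, the counts were 36 and 291. The other alternatives stayed within 1.5 times of each count.

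The share of CD4 T cells in CD45- Tom+ was 0.290% with 2 UMIs of each gate gene and 0.388% thinned, in CD45- Tom- 0.991% and 1.20%, and in CD45+ Tom- 0.872% and 0.920%. The Foxp3 share in CD45+ Tom- was 4.76% and 6.10%, and in CD45+ Tom+ 0% thinned. Signs turned for Ctla2a in the Foxp3 contrast with 2 UMIs of each gate gene (-1.87), and for Areg between Tom+ and Tom- in the pair labelled CD45- (-0.032 with 2 UMIs, -0.12 with looser filters) and in the other pair (-2.16 with doublets left out, -1.87 with 2 UMIs). After thinning, ratios turned for Sparc (0.53), Dnajc15 (0.10), Limd1 (1.45), Col1a1 (0.92) and Gsn (0.10) in the pair labelled CD45+ and for Acap1 (0.028) and Smarca4 (0.40) in the pair labelled CD45-. The cause was not tested in any of these cases. Of depth, 2 libraries gave Foxp3 profiles of 2 cells each, with 12733 and 13627 UMIs.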
